A study of Mus musculus with 2 samples.

Results

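Transcript levels of 10 genes that sense DNA or RNA in the cytosol, or relay that signal, were compared between 2 forms of a mouse mammary tumour cell line. The genes, taken by symbol from a fixed list, were Ddx58, Ifih1, Dhx58, Mavs, Mb21d1, Zbp1, Tmem173, Tbk1, Ikbke and Trex1, and all 10 were found among the 23562 genes of the deposited table. Both forms are labelled as line AS0574, from a breast tumour, and both carry the genotype Rnf8-/-;Trp53Δ/Δ. One form has that genotype alone, and these cells are called null here. The other form, Rnf8-complemented, had Rnf8 added back, and these cells are called complemented, so no library came from cells with Rnf8 or Trp53 intact. Rnf8 encodes a ubiquitin ligase of the DNA break response, and Trp53 encodes p53. Each form was 1 RNA-sequencing library, so there was no spread between replicates and no test. All intervals below are exact 95% limits on read counts. They cover counting error only, and differences between cultures or clones are not covered.

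Cells recognise nucleic acids out of place through 2 connected routes. Viral or misplaced double-stranded RNA is bound by the RIG-I-like receptors, RNA helicases that signal through the mitochondrial adaptor MAVS. DNA in the cytosol is bound by the enzyme cGAS, which makes a cyclic dinucleotide that activates the adaptor STING on the endoplasmic reticulum. Both adaptors recruit the kinase TBK1 and its relative IKK-epsilon, which phosphorylate the transcription factor IRF3 and lead to type I interferon. Interferon in turn induces many of the sensors, through transcription factors, STAT2 and IRF9 among them, bound at interferon-stimulated response elements.

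The promoter sequence shows where such elements could lie. RefSeq (GRCm38.p6) gave a window of 300 bases, from 250 before to 50 after the start site, for 7 of the 10 genes. Dhx58, Tmem173 and Zbp1 had no entry in the set of windows used here and were not searched. Both strands were searched for the core of the interferon-stimulated response element, written as a pair of GAAA half-sites 2 bases apart (GAAA, then any 2 bases, then GAAA), and for the palindrome TTCNNNGAA, a motif of cytokine-responsive promoters, and no window of these 7 genes held both. The response element core was found in 1131 of all 32851 promoter windows (3.44%) and TTCNNNGAA in 2726 (8.30%). Ifih1 and Ddx58 each held 1 core match and no TTCNNNGAA match, and the windows of Ikbke, Mavs, Mb21d1, Tbk1 and both start sites of Trex1 held neither. The 2 matched stretches are shown with the match in capitals. In Ifih1 the match lies on the gene's strand at positions 33 to 42 after the start. In Ddx58 it lies on the opposite strand at positions 3 to 12.
Ifih1, chr2:62646206-62646233, minus strand: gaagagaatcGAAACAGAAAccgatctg
Ddx58, chr4:40239804-40239833, minus strand: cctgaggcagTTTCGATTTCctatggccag

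The 150 bases before the start are printed next for these genes and for the kinase pair Ikbke and Tbk1 and the adaptor Mavs, which had no match. They let the upstream sequence of genes that differed between the libraries (Ifih1, Ddx58, Ikbke) be read beside that of genes that lay within 2-fold (Mavs, Tbk1). None of the 5 stretches holds a capital, because no match lay in them.
Ifih1, chr2:62646256-62646405, minus strand: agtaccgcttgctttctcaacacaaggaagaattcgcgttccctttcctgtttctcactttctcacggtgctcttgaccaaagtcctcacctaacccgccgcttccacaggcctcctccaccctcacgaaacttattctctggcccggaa
Ddx58, chr4:40239826-40239975, minus strand: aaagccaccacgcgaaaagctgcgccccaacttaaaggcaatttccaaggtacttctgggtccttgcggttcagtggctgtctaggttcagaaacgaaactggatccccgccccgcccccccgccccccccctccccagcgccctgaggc
Ikbke, chr1:131279564-131279713, minus strand: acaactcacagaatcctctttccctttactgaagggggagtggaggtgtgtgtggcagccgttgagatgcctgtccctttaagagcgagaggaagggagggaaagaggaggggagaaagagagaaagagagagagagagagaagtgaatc
Mavs, chr2:131233913-131234062, plus strand: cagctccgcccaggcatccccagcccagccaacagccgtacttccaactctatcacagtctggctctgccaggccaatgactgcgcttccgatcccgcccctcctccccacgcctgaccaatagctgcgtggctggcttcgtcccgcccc
Tbk1, chr10:121586795-121586944, minus strand: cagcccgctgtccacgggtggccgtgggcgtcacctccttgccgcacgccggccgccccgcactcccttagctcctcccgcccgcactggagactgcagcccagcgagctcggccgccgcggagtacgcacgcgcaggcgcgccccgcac
A match is a run of letters, not a shown binding site, and the absence of one says only that these letters are not in the window. G and C made up 49% of the Ifih1 window, 53.3% of Ddx58, 54.0% of Ikbke, 64.0% of Mavs and 69.0% of Tbk1. The share was 53.0% for Mb21d1 and 55.3% and 58.7% for the 2 start sites of Trex1. Mb21d1, which lay within 2-fold, had a lower share than Ddx58 and Ikbke, so the share did not fully separate the genes that differed from the others. Trex1, also within 2-fold, lay above Ifih1, Ddx58 and Ikbke at both start sites. Dhx58, Tmem173 and Zbp1, which differed, had no window to compare.

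The libraries held 57263401 (null) and 48607808 (complemented) counted reads. Levels are in RPKM (reads divided by gene length in kilobases and by library size). Comparisons of level between different genes depend on the gene lengths behind the deposited RPKM, whose annotation is not given. The intervals do not cover an error in these lengths. Rnf8 stood at 10.5 and 596 RPKM, so the library labelled as complemented held the higher level, and Trp53 at 6.15 and 4.69 RPKM. Counts per gene do not show which exons were read, so neither value checks a deletion. The libraries stood apart in cell type markers, although the labels give both the same line. Whether both came from 1 line was not tested, and with 1 library a form such a difference and the added Rnf8 cannot be told apart in any value below. All 10 epithelial markers were at least 2-fold higher in null cells, with a summed level of 6010 against 1.27 RPKM and at most 28 reads on any of them in complemented cells. Of 8 fibroblast markers 4 passed the filter on low values, all 4 were lower in null cells, and the list summed to 1.68 against 196 RPKM. Most of the 196 RPKM came from Col3a1 (140 RPKM) and Pdgfrb (46.6 RPKM). Below the filter were Col1a2 (24 and 899 reads), Lum (0 and 62), Thy1 (1 and 8) and Pdgfra (54 and 27). Of 18 leukocyte markers 13 had at most 20 reads in both libraries, and the defining markers Ptprc (0 and 1 reads), Itgam (2 and 2), Cd3e (1 and 0) and Siglech (1 and 1) were at or near 0, while other defining markers were Csf1r (292 and 100 reads), Emr1 (8 and 19) and Lyz2 (3 and 75). The 3 leukocyte markers that passed the filter were the receptor gene Cd14 (165 and 12.6 RPKM, higher), Cd68 (16.7 and 9.33 RPKM) and Fcer1g (2.02 and 3.56 RPKM), the last pair within 2-fold, and the list summed to 185 and 27.7 RPKM. The endothelial list, with 0 of 6 above the filter and Kdr at 0 reads in null cells, summed to 0.296 and 0.798 RPKM. The part of these marker differences in the results below was not tested. In bulk RNA, fewer cells of a type and less RNA per cell cannot be told apart.

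The RNA receptors, one of the DNA sensors, the adaptor STING and one kinase were higher in the cells without added Rnf8. Zbp1, Tmem173, Dhx58, Ifih1, Ddx58 and Ikbke were 2.91-fold to 408-fold higher in null cells. Mavs, Tbk1, Mb21d1 and Trex1 lay within 2-fold. The rule for a call was a difference of 1 or more, either way, in log2(RPKM + 1), null minus complemented, among genes with a mean of at least 1 RPKM. All 10 genes passed that filter, 6 were called higher, 0 lower and 4 within 2-fold. Over all 12609 genes that passed, 14.8% were called higher and 15.9% lower, so the 6 higher of 10 exceed the share of all genes, for a set chosen with these data known. The median difference of the 10 genes was 1.78 on the log2 scale, beside -0.17 over all genes that passed. All 10 exceeded 1 RPKM in null cells and 7 in complemented cells. The 3 below it there, Ifih1, Zbp1 and Dhx58, passed the filter only through null cells.

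**Figure D1:**
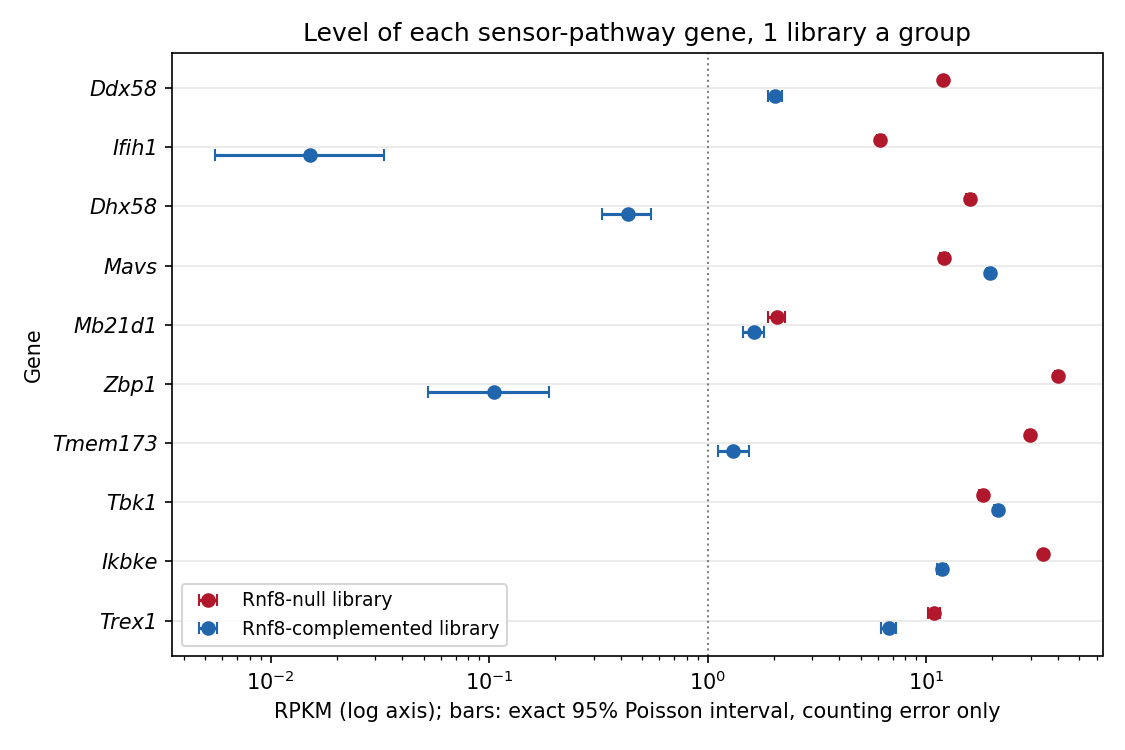
Level of each of the 10 genes in RPKM (horizontal log axis) in the Rnf8-null library (red) and the Rnf8-complemented library (blue), 1 library each; bars are exact 95% Poisson intervals and the dotted line marks 1 RPKM. The red points span 2.07 to 39.8 RPKM, and the blue points span 0.0151 to 21.2 RPKM, with Ifih1, Zbp1 and Dhx58 left of the line.

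The 3 RIG-I-like receptors were all higher in null cells. Ddx58 (chromosome 4, 40203773 to 40239828 of GRCm38) encodes RIG-I, which binds short double-stranded RNA with a triphosphate end. It was read at 11.9 RPKM (11.6 to 12.3, 4825 reads) in null cells and at 2.02 RPKM (1.88 to 2.18, 695 reads) in complemented cells. That is 5.89-fold higher (5.44 to 6.39), a log2 difference of 2.10, and Ddx58 was the only receptor of the family with more than 1 RPKM in both libraries.

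Ifih1 (chromosome 2, 62595798 to 62646255) encodes MDA5, which assembles along long double-stranded RNA. It was read at 6.15 RPKM (5.93 to 6.38, 2883 reads) in null cells and at 0.0151 RPKM (0.00553 to 0.0328) in complemented cells, where it had 6 reads. The ratio of 408 carries a wide interval, 187 to 1112, because the lower library held so few reads. On the log2(RPKM + 1) scale the difference was 2.82, less than that of Dhx58, since the added 1 RPKM compresses genes near 0.

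Dhx58 (chromosome 11, 100694884 to 100704271) encodes LGP2, a relative that lacks the signalling domain of the other receptors and tunes their activity. It was read at 15.8 RPKM (15.2 to 16.4, 2647 reads) against 0.429 RPKM (0.329 to 0.552, 61 reads), 36.8-fold higher in null cells (28.6 to 48.3, log2 difference 3.56). An annotated antisense gene, Dhx58os, overlaps it, and whether counting used strand is not given in the sources used here, so reads of the pair cannot be told apart. Summed over the 3 receptors the level was 33.9 RPKM in null and 2.47 RPKM in complemented cells, and the order within the family changed. In null cells the order was Dhx58, Ddx58, Ifih1. In complemented cells it was Ddx58, Dhx58, Ifih1, and Ddx58 there was 134 times the level of Ifih1 (61.4 to 367), against 1.94 times (1.85 to 2.03) in null cells.

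Mavs (chromosome 2, 131234063 to 131248025), the adaptor that RIG-I and MDA5 both use, did not follow its receptors. It was read at 12 RPKM (11.5 to 12.5, 2236 reads) in null cells and 19.5 RPKM (18.8 to 20.2, 3086 reads) in complemented cells, 1.63-fold lower in null cells (1.54 to 1.72) and within the 2-fold rule (log2 difference -0.66). In null cells Ddx58 and Mavs stood at the same RPKM within counting error, with a ratio of 0.994 (0.946 to 1.05) by the gene lengths used. In complemented cells Mavs was 9.64 times the level of Ddx58 (8.87 to 10.5) and 45.4 times that of Dhx58 (35.3 to 59.5).

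In the cGAS and STING pair the adaptor differed and the enzyme lay within 2-fold. Mb21d1 (chromosome 9, 78430526 to 78443237), which encodes cGAS, was the least abundant of the 10 genes in null cells at 2.07 RPKM (1.89 to 2.25, 507 reads). It stood at 1.62 RPKM (1.45 to 1.80, 338 reads) in complemented cells. The ratio was 1.27 (1.11 to 1.47) and the log2 difference 0.23, within 2-fold. A pseudogene, Gm8093, overlaps it on the opposite strand.

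Tmem173 (chromosome 18, 35733679 to 35740554) encodes STING, the adaptor that cGAS activates. It was read at 29.8 RPKM (28.9 to 30.8, 4033 reads) in null cells and 1.31 RPKM (1.11 to 1.53, 150 reads) in complemented cells, 22.8-fold higher in null cells (19.4 to 27.0, log2 difference 3.74). By RPKM and the gene lengths used, the adaptor therefore stood at opposite sides of parity with cGAS. Tmem173 was 14.4 times the level of Mb21d1 (13.2 to 15.9) in null cells and 0.806 times (0.661 to 0.980) in complemented cells. Against the RNA-side adaptor Mavs the ratio was 2.49 (2.36 to 2.62) and 0.0670 (0.0565 to 0.0790).

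Zbp1 (chromosome 2, 173206612 to 173218923) encodes a sensor of left-handed DNA and RNA helices that can start necroptosis, an inflammatory form of cell death. It was the most abundant of the 10 genes in null cells at 39.8 RPKM (38.7 to 40.9, 4927 reads) and the second lowest in complemented cells at 0.105 RPKM (0.0523 to 0.187, 11 reads). The ratio was 380 (212 to 762). Its log2 difference of 5.21 was the highest of the 10, above that of 98.9% of all genes that passed the filter.

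Trex1 (chromosome 9, 109057933 to 109059734) encodes the exonuclease that degrades cytosolic DNA and so limits cGAS. It was read at 10.8 RPKM (10.2 to 11.5, 1112 reads) against 6.72 RPKM (6.19 to 7.29, 586 reads), a ratio of 1.61 (1.46 to 1.78) and a log2 difference of 0.62, within 2-fold. Its annotated position overlaps Atrip on the same strand, which was read at 4.65 and 4.68 RPKM, and reads in the shared part may be assigned to either gene. The nuclease stood at 5.24 times the level of Mb21d1 (4.71 to 5.83) in null cells and 4.14 times (3.62 to 4.75) in complemented cells.

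The kinase pair at the junction of both routes was exchanged in order. Tbk1 (chromosome 10, 121546455 to 121586787) was read at 18.1 RPKM (17.4 to 18.7, 3263 reads) in null and 21.2 RPKM (20.5 to 21.9, 3252 reads) in complemented cells, 1.17-fold lower in null cells (1.12 to 1.23) with a log2 difference of -0.22. That small difference takes the opposite sign with DESeq2 size factors (0.00463). Ikbke (chromosome 1, 131254343 to 131279606), which encodes IKK-epsilon, the inducible relative of TBK1, was read at 34.1 RPKM (33.3 to 34.9, 6492 reads) against 11.7 RPKM (11.2 to 12.3, 1896 reads). It was 2.91-fold higher in null cells (2.76 to 3.06, log2 difference 1.46), the least of the 6 called genes. Ikbke was 1.89 times the level of Tbk1 (1.81 to 1.97) in null cells and 0.553 times (0.522 to 0.585) in complemented cells. The antisense genes Gm28913 and Gm28914 overlap Ikbke.

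**Figure D2:**
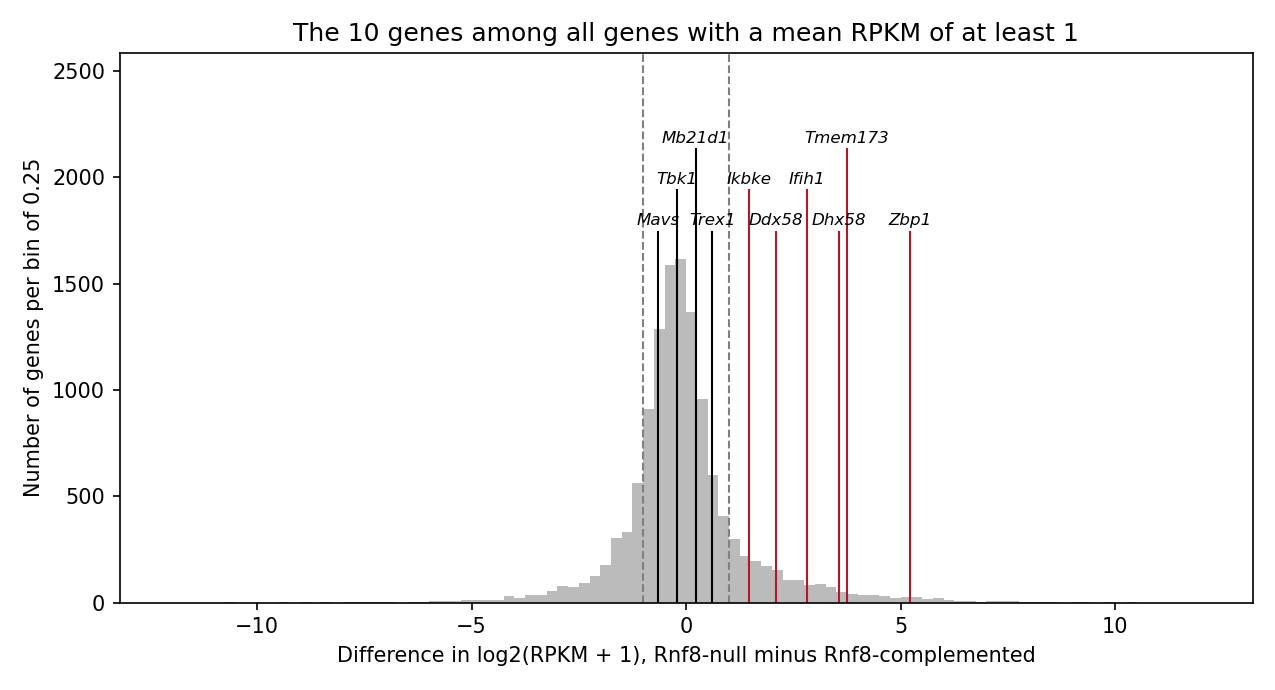
Number of genes (vertical axis, bins of 0.25) by difference in log2(RPKM + 1), Rnf8-null minus Rnf8-complemented, for the 12609 genes with a mean of at least 1 RPKM (grey). Vertical lines mark the 10 genes, red where called higher; dashed lines mark 2-fold. Mavs at -0.66 and Tbk1 at -0.22 lie inside the bulk of genes, and Zbp1 at 5.21 lies in the right tail.

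Ordered by level, null cells ran Zbp1, Ikbke, Tmem173, Tbk1, Dhx58, Mavs, Ddx58, Trex1, Ifih1 and Mb21d1. The order depends on the gene lengths used, which the counting intervals do not cover. Of the neighbours in that order, Mavs and Ddx58 could not be told apart within counting error. The complemented cells ran Tbk1, Mavs, Ikbke, Trex1, Ddx58, Mb21d1, Tmem173, Dhx58, Zbp1 and Ifih1, with each neighbouring pair apart beyond counting error. The levels spanned 19.3-fold in null cells and 1406-fold in complemented cells, where the kinases and Mavs were at the top and Dhx58, Zbp1 and Ifih1 at the bottom. Tbk1 exceeded 66.3% of the genes that passed the filter in null and 69.1% in complemented cells. Zbp1 exceeded 83.4% and 3.23%, Tmem173 78.0% and 9.27%, and Ifih1 37.7% and 1.40%.

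Other scalings kept these calls. TMM scaling moved the median difference of all genes by 0.20 on the log2 scale and DESeq2 size factors moved it by 0.21. The same 6 genes were called higher under both, and under pseudocounts of 0.1 and 5 RPKM. Over these settings Zbp1 ranged from 3.13 to 7.61 and Ifih1 from 1.15 to 5.76, the widest ranges, while Ikbke ranged from 1.22 to 1.69. With a share of higher calls of 48.1% among all called genes by the library total, TMM gave 58.4% and DESeq2 size factors 58.9%.

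**Figure D3:**
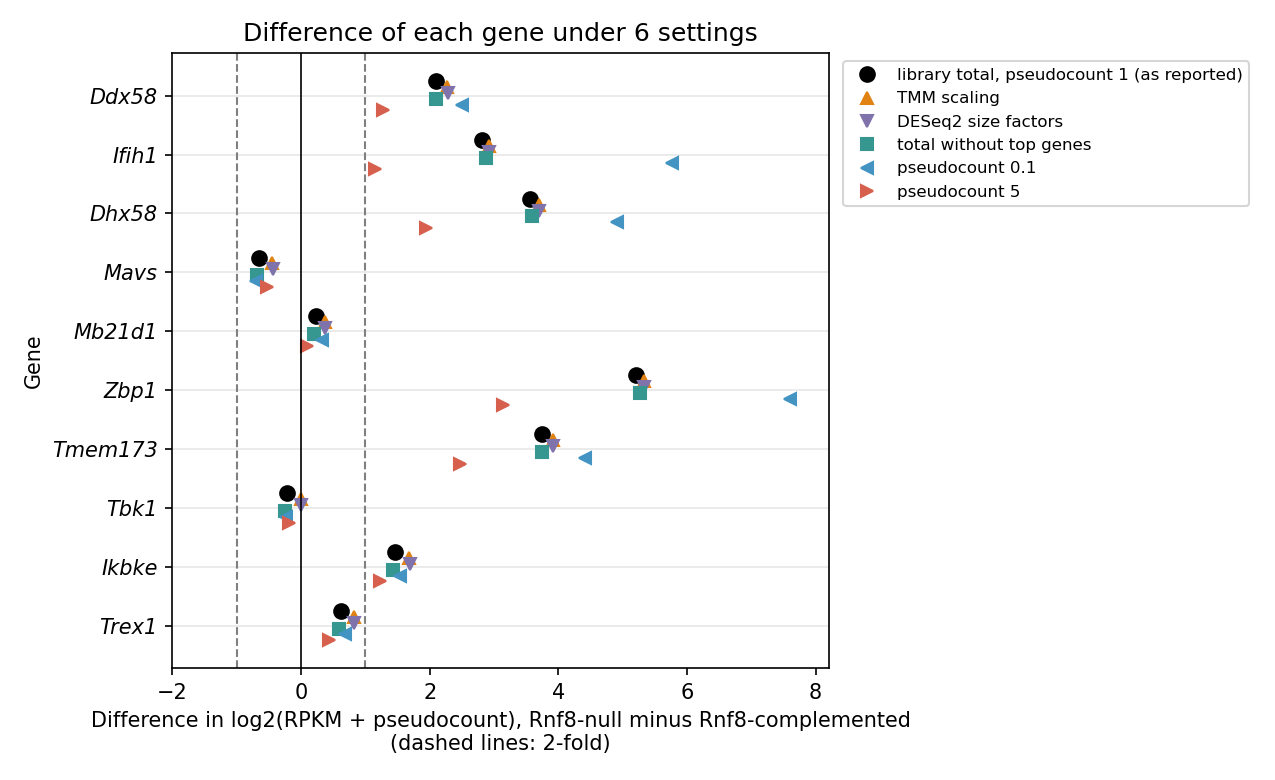
Difference of each gene, Rnf8-null minus Rnf8-complemented, in log2(RPKM + pseudocount) under 6 settings (symbols); dashed lines mark 2-fold. All symbols of Ddx58, Ifih1, Dhx58, Zbp1, Tmem173 and Ikbke lie right of the 2-fold line, with Ifih1 between 1.15 and 5.76, and all symbols of Mavs, Mb21d1, Tbk1 and Trex1 lie between the lines.

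The genes around these 10 were described from 10 lists of 245 genes, of which 242 were in the table and 192 passed the filter. Of the 192, 41 were called higher (21.4%), 16 lower (8.33%) and 135 within 2-fold, and their median difference was -0.0032. Over all genes 14.8% were higher and 15.9% lower. As a set, the 192 genes thus held more higher and fewer lower genes than the background. The lists were chosen with earlier results of these data known. The share of higher genes ran from 4.55% to 57.1% over the 9 lists with a gene that passed. It was greatest for other RNA sensors (57.1%) and the list of interferon receptors (50%). It lay between 15.2% and 23.8% in the lists of other DNA sensors, regulators of both routes and cell death genes. Kinase partners (11.8%), transcription factors (7.69%) and nucleases (4.55%) lay below 14.8%. The excess of higher genes was therefore not shared by every list. With TMM or DESeq2 scaling all 41 stayed higher, and the number of higher genes became 46 with each. Over all genes these scalings gave 17.3% and 17.5% higher and 12.3% and 12.2% lower. Of the 16 lower genes Aim2, Cyld, Ppp1cc, Dnase1, Traf2, Rel and Ep300 lost the call with both (9 left), each still below 0, and the median became 0.19 and 0.20. Small negative differences changed sign there, in 31 and 32 of the 135 genes within 2-fold, among them Samhd1, Tank, Traf3 and Irf3.

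Other RNA sensors and RNA-binding antiviral genes were the list with most higher genes. Of 27 listed genes 21 passed the filter, 12 were higher (57.1%, beside 14.8% of all genes), 0 lower (beside 15.9%) and 9 within 2-fold. The median was 1.70 among those that passed and 0.67 over all 27. Of the higher genes, Ddx60, Ifit1, Ifit3 and the 7 Oas and Oasl genes lay below 1 RPKM in complemented cells. These genes passed the filter only through null cells. Tlr3, the endosomal receptor for double-stranded RNA, was read at 16.0 RPKM against 2.19 (7.31-fold, 6.66 to 8.05). All 7 Oas and Oasl genes, which encode sensors that make an RNA-like second messenger or their relatives, were higher, with a summed level of 262 against 0.995 RPKM. Oas1a had 8133 reads against 4, Oasl2 had 11308 against 20, and Oas3 had 4774 reads against 0, at least 1351-fold higher against a floor of 3 reads in the library. Oas genes resemble one another, so the split of reads among them is uncertain. Ifit1, which binds RNA with a foreign cap, stood at 22.8 against 0.226 RPKM. The RNA-dependent kinase gene Eif2ak2 (PKR) stood at 19.0 against 11.5 RPKM, within 2-fold, as did the helicase genes Dhx9, Dhx36, Dhx15, Dhx33, Ddx1, Ddx21 and Ddx3x.

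Other DNA sensors went both ways. Of 21 that passed, 5 were higher (23.8%, beside 14.8% of all genes), 2 lower (9.52%, beside 15.9%) and 14 within 2-fold (median -0.04). The 5 higher genes were all of the Ifi200 family, whose proteins bind DNA, led by Ifi203 at 18.4 against 1.21 RPKM and Mndal at 39.1 against 3.97 RPKM. Ifi204 was the most abundant at 89.3 against 31.3 RPKM. These genes lie side by side, Ifi203 and Mndal overlap on the same strand, and their separate values are uncertain. Aim2, which starts the inflammasome on DNA, was lower at 0.860 against 2.90 RPKM (3.37-fold, 2.74 to 4.17), and so was Hmgb2, a chromatin protein that also binds nucleic acids in the cytosol, at 25.6 against 107 RPKM. The 6 listed subunits of RNA polymerase III, which can copy cytosolic DNA into a RIG-I ligand, all lay within 2-fold (-0.45 to 0.56).

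Proteins that switch the receptor and adaptor of the RNA route on or off divided into 8 higher, 3 lower and 24 within 2-fold of 35 that passed (median 0.0023). The higher share was 22.9%, beside 14.8% of all genes, and the lower share 8.57%, beside 15.9%. Trim25, a ubiquitin ligase linked to RIG-I activation, was higher at 36.0 against 12.5 RPKM, and Rnf135, another ligase of RIG-I, lay within 2-fold at 8.29 against 5.77 RPKM. Rnf5, a ligase that targets STING and MAVS for degradation, stood at 180 against 28.5 RPKM (6.32-fold, 5.99 to 6.67), with an annotated antisense gene. The related ligase genes Smurf1 and Smurf2 differed in opposite directions, at 80.2 against 23.6 and 8.48 against 23.9 RPKM.

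For the DNA route, 5 of 33 regulators that passed were higher (15.2%, beside 14.8% of all genes) and 4 lower (12.1%, beside 15.9%). The other 24 lay within 2-fold (median -0.14), so the list as a whole stood near the background. Enpp1, which breaks down the cyclic dinucleotide of cGAS outside the cell, stood at 44.9 against 1.10 RPKM (40.9-fold, 35.6 to 47.3). Usp18, a deconjugase of ISG15 that restrains interferon signalling, stood at 89.9 against 0.488 RPKM. Slc19a1, a folate carrier whose human form can import cyclic dinucleotides, had 0 reads in null cells and 1816 in complemented cells, at least 713-fold lower against a floor of 3 reads. It overlaps Col18a1 on the opposite strand. Casp1, the inflammasome protease, was lower at 11.0 against 96.6 RPKM.

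Of 22 nucleases and RNA editors that limit the cell's own nucleic acids, 1 was higher, 1 lower and 20 within 2-fold (median -0.03). Each call made up 4.55%, beside 14.8% higher and 15.9% lower of all genes. The higher gene was Skiv2l, an RNA exosome helicase (37.4 against 11.6 RPKM), and the lower was Dnase1 (2.99 against 7.01 RPKM), at the edge of the rule. Samhd1 stood at 12.1 against 12.6 RPKM, the 3 RNase H2 subunit genes lay between -0.91 and -0.50, and Adar, which edits double-stranded RNA, lay just inside the rule at 28.7 against 14.1 RPKM (log2 difference 0.97). Trex1 lay within 2-fold, like most of this list.

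Partners of the kinases mostly lay within 2-fold, as Tbk1 did. Of 34 that passed, 4 were higher (11.8%, beside 14.8% of all genes), 2 lower (5.88%, beside 15.9%) and 28 within 2-fold (median -0.01). Tank and Traf3, scaffold and ubiquitin ligase of the kinase complex, stood at 11.4 against 12.6 and 8.65 against 8.83 RPKM. The higher genes were Tbkbp1, a TBK1-binding adaptor (4.96 against 0.271 RPKM), Ticam1, the adaptor of Tlr3 (28.6 against 9.25 RPKM), Tnip1 and Tnip3. The lower genes were Traf2 (15.0 against 32.0 RPKM) and the deubiquitinase gene Cyld (3.44 against 7.89 RPKM).

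At the end of the route most transcription factors lay within 2-fold, as did most of all genes that passed the filter (8733 of 12609). Of 13 that passed, 1 was higher (7.69%, beside 14.8% of all genes), 3 were lower (23.1%, beside 15.9%) and 9 lay within 2-fold. Irf3, the factor that TBK1 phosphorylates, stood at 15.4 against 15.9 RPKM, a ratio of 0.971 (0.914 to 1.03), so its counts could not be told apart. Irf7, its inducible relative, was the higher gene, at 141 against 0.310 RPKM. The lower genes were Rel, Crebbp and Ep300, of which Rel and Ep300 lost the call with TMM or DESeq2 scaling.

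The interferon genes themselves were barely read. Of 18 type I and III interferon genes in the table, 0 passed the filter and 11 had no read in either library. Ifnb1, the first interferon made on this route, had 6 reads in null and 2 in complemented cells, a ratio of 2.55 with an interval of 0.455 to 25.8, so a difference was not detectable at this depth. A count of 3 reads on Ifnb1 corresponds to 0.0680 and 0.0802 RPKM. The near-identical lambda genes Ifnl2 and Ifnl3 had 2 and 0 reads in null and 17 each in complemented cells, and can share reads.

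Genes of interferon receptors lay on both sides of the 2-fold rule. The type I receptor genes Ifnar1 and Ifnar2 stood at 6.85 against 13.4 and 16.9 against 26.0 RPKM, within 2-fold. Genes of transcription factors that interferon activates were higher, with Stat2 at 26.5 against 2.77 RPKM (9.54-fold, 8.80 to 10.3) and Irf9 at 14.1 against 1.03 (13.7-fold, 12.3 to 15.4). Irf9 overlaps Rnf31 on the same strand. Ifnlr1, the specific chain of the lambda interferon receptor, was higher at 16.8 against 0.713 RPKM, and so was Ifngr1, a chain of the gamma interferon receptor, at 51.6 against 17.4 RPKM (2.96-fold, 2.81 to 3.13). The other chain, Ifngr2, lay within 2-fold at 31.8 against 43.3 RPKM. In all, 7 of 14 that passed were higher (50%, beside 14.8% of all genes), 1 lower (7.14%, beside 15.9%) and 6 within 2-fold. The lower gene was Socs3, a feedback inhibitor of cytokine receptors, at 9.45 against 60.3 RPKM.

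The listed cell death genes around Zbp1 went both ways. Of 9 that passed, 2 were higher (22.2%, beside 14.8% of all genes), 2 lower (22.2%, beside 15.9%) and 5 within 2-fold. With so few genes these shares cannot be set apart from those of all genes. Ripk3, the kinase that Zbp1 binds, had 6 reads against 1 and lay below the filter, with a ratio of 5.09 (0.618 to 234), so a difference was not detectable at this depth. Gsdmd, which encodes a pore-forming protein of pyroptosis, also lay below the filter, with 141 reads in null cells and 0 in complemented cells, at least 39.9-fold higher against a floor of 3 reads. The necroptosis effector gene Mlkl (25.7 against 11.0 RPKM) and Casp8 (43.2 against 19.0 RPKM) were higher, as Zbp1 was, Casp1 and Casp4 were lower, and Ripk1 lay within 2-fold at 5.74 against 7.28 RPKM. Casp4, a sensor of bacterial lipopolysaccharide, was read at 2.76 against 48.7 RPKM.

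**Figure D4:**
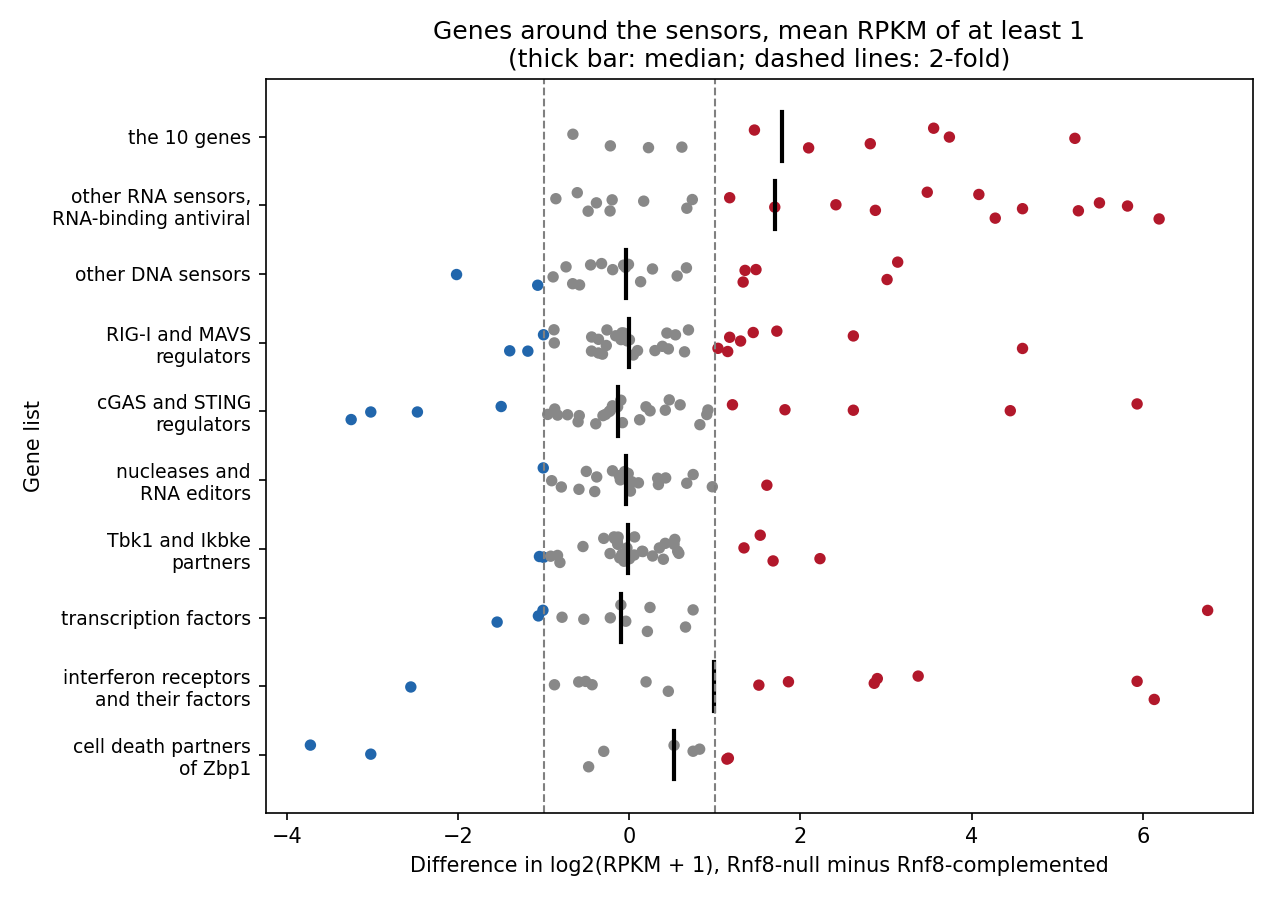
Difference in log2(RPKM + 1), Rnf8-null minus Rnf8-complemented, of each gene with a mean of at least 1 RPKM in 9 of the 10 lists and of the 10 sensor genes (top row); red is at least 2-fold higher, blue at least 2-fold lower, thick bars are medians and dashed lines mark 2-fold. The medians of the 10 genes (1.78) and of the other RNA sensors (1.70) lie right of the line, and those of the nucleases (-0.03) and kinase partners (-0.01) lie near 0. The interferon genes are not drawn because 0 passed the filter.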

How the data were processed

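Per the labels' protocols, total RNA of the cell lines was purified with a kit and made into Illumina TruSeq libraries. The build mm10 (GRCm38) and the tools STAR 2.4.0f1, bedtools, SAMtools 0.1.18 and DESeq2 appear in the submitters' processing notes without roles. How reads were counted, with which annotation and with or without strand, is not given in the sources used here. For each of 2 libraries the authors deposited whole-number read counts and RPKM values. Each RPKM equals its count scaled by the column total and 1 whole-number gene length, to within 1.35e-08 bases. Columns were matched by sample title, and 0 belonged to other samples.

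From these the difference in log2(RPKM + 1) was computed, with a 2-fold rule at a mean RPKM of at least 1. With 1 library a group, no test was run. Poisson and Clopper-Pearson intervals used SciPy 1.17.1 and the 95% level. Copies of 1 molecule cannot be recognised without molecular identifiers, so intervals and the 3-read floor cover counting error only and can be too narrow. Scaling alternatives used edgeR 4.0.16 and DESeq2 1.42.0 in R 4.3.3. The interval and call code was tested on simulated data.

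The 10 genes and all gene lists were chosen with earlier results of these data known. The naming rule takes all 10, each called gene of a list, up to 4 genes of a list with the greatest difference, and defining markers. List genes named while within 2-fold or below the filter were picked after their values were seen. Positions come from GENCODE vM21 (GRCm38), where Mb21d1 is named Cgas. Results for some listed genes are not reported here.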

Additional observations from a re-analysis of the deposited data

How the results depend on the processing

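Under the 9 alternatives 0 of the 6 called genes changed direction. Pseudocounts, filters and fold rules cannot change a direction, so only the 3 other scalings could have done so. Those scalings moved the median of all genes by at most 0.21, beside a least called difference of 1.46 (Ikbke). All 6 stayed called under the 3 other scalings and both pseudocounts. Leaving out the filter could not remove a call, because all 10 genes passed it. Tbk1, not called, changed sign with DESeq2 size factors. A mean RPKM of at least 5 left 8 genes and 5 higher calls, because Ifih1 and Mb21d1 fell out. The 4-fold rule left 5, without Ikbke. The 1.5-fold rule gave 7 higher, with Trex1, and 1 lower, Mavs. The median of the 10 genes was 1.98 with TMM scaling, 1.985 with DESeq2 size factors, 2.02 with a pseudocount of 0.1 RPKM and 1.19 with 5 RPKM. Among other pathway genes the 16 lower calls became 9 with either TMM or DESeq2 scaling, 8 with a pseudocount of 5, 37 at 1.5-fold and 6 at 4-fold. The 41 higher calls became 46, 31, 56 and 21 under the same settings. Of 50 member values under other scalings and pseudocounts, 35 lay beyond the main counting interval. No replicate could be left out, and the spread between cultures is unknown. No paired analysis was possible because each group had 1 library and no result comes from a test. The depth limits Ifih1, Zbp1 and Ifnb1, whose lower library held 6, 11 and 2 reads.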
